A study of Mus musculus with 12 samples.

Results

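The mitochondrial respiratory chain moves electrons from NADH and succinate to oxygen through complexes I to IV, pumps protons across the inner membrane, and drives ATP synthase, often counted as complex V. Most of its subunits are encoded in the nucleus and imported, whereas a small set is made inside the organelle from mitochondrial DNA. Adipocyte differentiation is known to be accompanied by an increase in mitochondrial mass, so the nuclear-encoded subunits are of interest while preadipocytes become fat cells. The genes described here are the 84 of 39423 in the deposited tables whose names begin as subunits of complex I (Ndufa, Ndufb, Ndufc, Ndufs or Ndufv and a number), succinate dehydrogenase (Sdha to Sdhd), complex III (Uqcr), cytochrome c oxidase (Cox4 to Cox8) or ATP synthase (Atp5). Another 8 matching names were left out, 2 pseudogenes and 6 further copies of a name marked with a numbered suffix. The rule used names and no measured value. It took in 35 members of complex I, 4 of complex II, 8 of complex III, 20 of complex IV and 17 of complex V. Ndufa4 and Ndufa4l2 were counted with complex IV, where the Ndufa4 protein resides. The name rule also took in 3 genes that are not structural subunits in the strict sense, namely Atp5s and Atp5sl, named after ATP synthase, and Cox7a2l, a supercomplex factor.

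RNA was sequenced from 3T3-L1 cells, a mouse preadipocyte line, transfected with a control siRNA (siCtrl) or an siRNA against Prmt1 (siPRMT1), which encodes the main enzyme for asymmetric arginine dimethylation. All cells received DMI, the adipogenic mixture of dexamethasone, IBMX and insulin, for 24 h (day 1) or 72 h (day 3). Each of the 4 groups had 3 libraries, 12 in all, and no uninduced cells were among them. The study asked how loss of PRMT1 affects adipogenesis. All libraries came from 1 cell line. The study's methods describe its data in general as coming from independent experiments, but neither they nor the labels say this of the sequenced libraries, so p-values measure the spread between these libraries, which may be technical. Between 15116462 and 42357137 counts fell on genes per library. The siCtrl day 1 replicate 3 library stood apart from its group, with a chi-square per gene of 50.6 and 30.8 against the other two, where no other pair of replicates passed 15.8, and results that rest on it are also given without it. Prmt1 was at 85.8 ± 4.7 FPKM (fragments normalized to exon length and library size, mean ± SD, n = 3) in siCtrl and 41.3 ± 2.6 in siPRMT1 at day 1, and at 124 ± 15 and 67.4 ± 4.9 at day 3. The log2 fold change in edgeR's quasi-likelihood test was -1.11 at day 1 (adjusted p = 0.00098). At day 3 it was -0.88 (adjusted p = 1.2e-05). Preadipocyte and adipocyte identity was checked on fixed markers. The summed FPKM of 6 adipocyte markers ran from 109 to 149 over the day 1 libraries and from 1627 to 2239 over the day 3 libraries, and was lower in siPRMT1 than in siCtrl on both days without overlap. Preadipocyte markers summed to 988 to 1179 FPKM over the day 1 libraries and to 459 to 648 over those of day 3. Macrophage and endothelial markers summed to at most 0.38 and 0.87 FPKM, and no muscle or epithelial marker passed 2 counts in a library.

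Levels were spread widely within complexes I, III, IV and V. Atp5b, the catalytic beta subunit of ATP synthase, was the most abundant member at 719 FPKM averaged over the 12 libraries. The highest members of the other complexes were Ndufa4 at 413 FPKM in complex IV, Ndufb10 at 270 FPKM in complex I, Uqcr11 at 235 FPKM in complex III and Sdhd, a membrane anchor, at 141 FPKM in complex II. Complex II was the most even, since its lowest member, Sdhc, had a mean of 89.5 FPKM. The lowest members past the filter on low counts elsewhere were Ndufs3 at 13.1 FPKM, Uqcrc1 at 15.02 FPKM, Ndufa4l2 at 0.279 FPKM and Atp5s at 3.01 FPKM. Ndufs3, Uqcrc1, the ATP synthase alpha subunit Atp5a1 (35.1 FPKM) and Ndufa7 are the 4 members whose names occur more than once in the tables. Ndufa7 itself held at most 2 counts per library, whereas its 3 other copies held 3151, 468 and 2314 counts over the 12 libraries. How fragments that match several places were treated is not given in the sources used here, and its part in the levels of these members was not tested.

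Of the 84 members, 78 passed the filter in at least 1 comparison and 75 in all 5. The 6 never tested were Ndufa7 and the tissue-restricted cytochrome c oxidase isoforms Cox6b2, Cox7a1, Cox7b2, Cox8b and Cox8c. Cox8c had no count in any library, which allows at most 3 counts, and Cox8b and Cox7b2 reached 1 and 2 counts. Cox7a1, an isoform of heart, muscle and brown fat, reached 12 counts in siCtrl day 3 replicate 3 and between 0 and 8 in the other libraries. The widespread isoform of each pair lay far above its partner. Cox4i1 made up between 99.86% and 99.98% of the summed FPKM of Cox4i1 and Cox4i2 in every library, and Cox6a1 between 99.69% and 99.98% of that of Cox6a1 and Cox6a2. In the remaining pairs Cox6b1 was at 186 ± 6.33 FPKM, Cox7a2 at 83.4 ± 7.35, Cox7b at 120 ± 17.5 and Cox8a at 295 ± 20.5 in siCtrl at day 1 (SD, n = 3).

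The promoters of the members were searched for short sequence motifs, which the name rule did not use, and each motif stood in a minority of them. RefSeq promoter windows of the GRCm38.p6 build, 250 bases before to 50 bases after a transcription start, were found for 66 members (71 windows). The letters GCGCANGCG, the core recognised by nuclear respiratory factor 1 (NRF1), a factor known for driving respiratory genes, occurred on either strand in 29.6% of member windows, in 12.5% of the windows of all genes tested and in 6.25% of all 32851 windows. CCGGAAG, the core of the ETS factor GABPA, occurred in 22.5% of member windows against 16.5% and 8.86%, and AAGATGGC, recognised by YY1, in 12.7% against 4.18% and 2.75%. TCAAGGTCA, the element of the oestrogen-related receptors, stood in 2 member windows (Atp5g3 and Sdhd), or 2.82% against 0.255% and 0.423%. A motif and its reverse complement can overlap at 1 site, and a match is a description of letters and not a bound site. NRF1 matches from 4 complexes are shown because this motif was the most frequent of those searched, each as 30 bases upstream of the start with the motif or its reverse complement in capitals.

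Ndufa8 (chr2:36049348-36049377, minus strand): tagagcagtgCGCTTGCGCgtcgctggaga
Sdhd (chr9:50603909-50603938, minus strand): tcgctggggtGCGCACGCGcggtggcagcg
Cox6a1 (chr5:115349056-115349085, minus strand): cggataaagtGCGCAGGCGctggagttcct
Atp5h (chr11:115420041-115420070, minus strand): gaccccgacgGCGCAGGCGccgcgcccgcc

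GABPA matches are shown as examples of the letters, 1 from each of complexes I, III, IV and V.

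Ndufs3 (chr2:90904730-90904759, minus strand): cccgcgtccgcCCGGAAGaagagtcactgc
Uqcr11 (chr10:80406869-80406898, minus strand): ttctctcctccCCGGAAGtagatgtcaatg
Cox6b1 (chr7:30626124-30626153, minus strand): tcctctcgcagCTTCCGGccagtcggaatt
Atp5j (chr16:84835019-84835048, minus strand): agctgagggacCCGGAAGcacttaccctcc

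The median log2 fold change from day 1 to day 3 in siCtrl was 0.49 in the 20 tested members with an NRF1 match and 0.43 in the 41 without, and in siPRMT1 both medians were 0.47. For GABPA the siCtrl medians were 0.43 in 16 members with a match and 0.48 in 45 without, and in siPRMT1 0.46 and 0.48. For YY1 they were 0.17 in 9 members with a match and 0.46 in 52 without in siCtrl, and 0.41 and 0.48 in siPRMT1. The 2 members with the oestrogen-related receptor element had medians of 0.55 and 0.99, against 0.44 and 0.47 in the 59 without. No test of these differences was made.

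From day 1 to day 3 members of every complex rose in both siRNA groups. The members took up between 0.773% and 0.846% of all counts in the day 1 libraries and between 1.12% and 1.29% in the day 3 libraries, without overlap. In siCtrl, 31 of 77 tested members were called higher at day 3 and 2 lower, where a call needs an adjusted p under 0.05 and a log2 fold change beyond 0.5 in either direction. Over all 13829 genes tested, 22.7% were called higher and 20.4% lower. At any fold change, 52 members passed upward (30.2% of all genes) and 2 downward (28.7%). In siPRMT1, 35 of 76 members were called higher (19.0% of all genes) and none lower (17.4%). At any fold change, 62 passed upward (32.2%) and 1, Atp5g2, downward (31.2%). The median log2 fold change of the members was 0.47 in siCtrl and 0.47 in siPRMT1, against 0.00 over all genes in both. Without siCtrl day 1 replicate 3, 38 members were called higher and 1 lower in siCtrl. The share of all genes called in that fit is not given here, so this rise is not read as particular to the members. In bulk RNA, more cells in which a gene is on and more RNA per cell cannot be told apart.

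**Figure D1:**
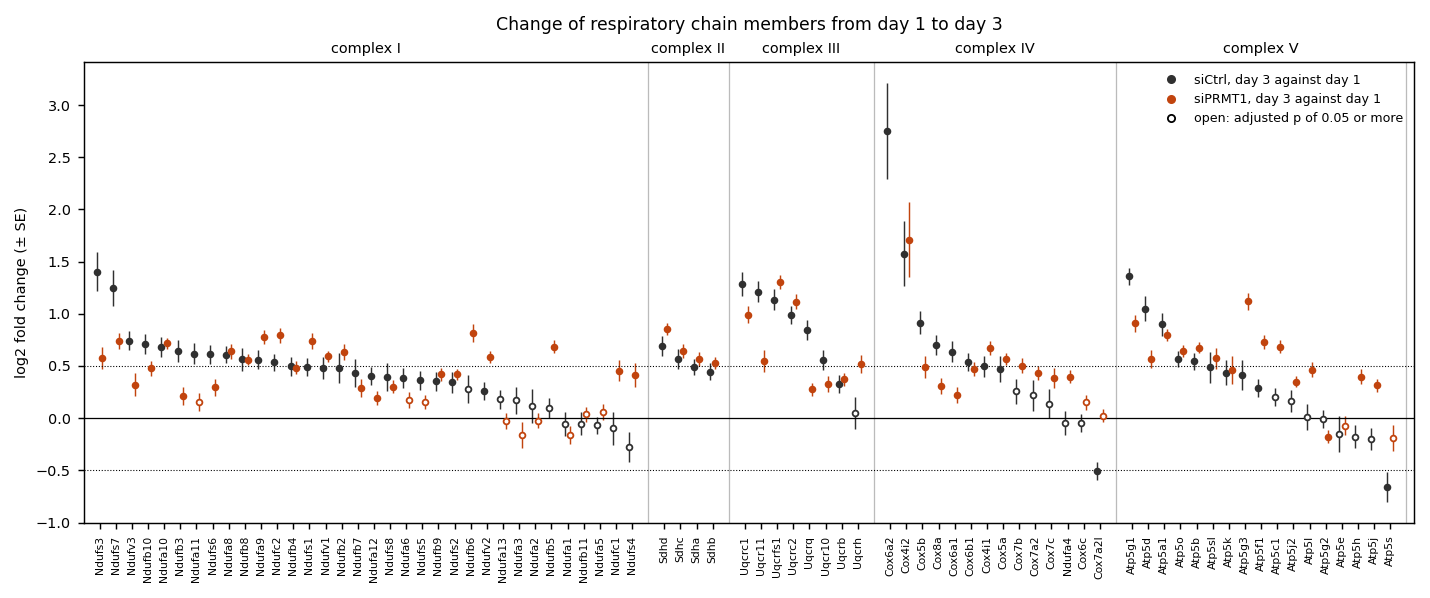
Log2 fold change from day 1 to day 3 (vertical axis, points with SE) for each tested member, by complex, in siCtrl (black) and siPRMT1 (red), with open points at an adjusted p of 0.05 or more and dotted lines at 0.5 and -0.5. Most points lie above 0, with the 3 core subunits of complex III at 0.99 or more in both groups and Cox7a2l and Atp5s below -0.5 in siCtrl.

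This rise was smaller once a trend in gene length was removed. The median exon length of the tested members was 768 bases against 3342 over all genes tested. With a smooth trend in length removed from each library, 14 of 77 members were called higher in siCtrl, a share near the 19.4% of all genes called in that fit. In siPRMT1 19 of 76 were called, where the share of all genes was 16.8%. The median log2 fold changes of the members were then 0.18 and 0.34, against -0.08 and -0.06 over all genes. Those still called in both groups included Uqcrfs1, Uqcrc1, Uqcrc2, Ndufs7, Atp5a1 and Atp5g1. Removing the trend also removes any rise that short genes share, so length itself as the cause was not tested.

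A set of 20 members was listed by role, as subunits that bear the redox centres or the nucleotide sites or form the central body of a complex. It includes Uqcrc1 and Uqcrc2, which are structural, and Cox4i1, Cox5a and Cox5b, which surround a catalytic core made inside the mitochondrion. All 20 had a positive log2 fold change in both siRNA groups. Of these, 10 were called higher in siCtrl and 17 in siPRMT1 (22.7% and 19.0% of all genes), and none was called lower. Their log2 fold changes ran from 0.20 to 1.40 in siCtrl and from 0.30 to 1.30 in siPRMT1. The 3 core subunits of complex III, which passes electrons from ubiquinol to cytochrome c, were called higher in both groups. Among all 8 members of that complex, 6 were called higher in siCtrl and 5 in siPRMT1 (22.7% and 19.0% of all genes). Uqcrfs1, the Rieske iron-sulfur protein, was at 65.97, 73.06 and 73.71 FPKM in the siCtrl libraries at day 1 and at 157, 149 and 184 at day 3. In siPRMT1 it was at 65.98, 65.77 and 65.37 FPKM at day 1 and at 178, 159 and 153 at day 3. Every day 3 library lay above every day 1 library by a wide margin, and the log2 fold changes were 1.13 ± 0.10 (SE, adjusted p = 6.9e-06) and 1.30 ± 0.07 (adjusted p = 1.2e-09). Uqcrc2, a core protein that holds the complex together, changed by 0.99 and 1.12 on the log2 scale, and its partner Uqcrc1 by 1.29 and 0.99.

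Complex I takes electrons from NADH. Of its 34 tested members, 12 were called higher in siCtrl and 13 in siPRMT1, where 22.7% and 19.0% of all genes were, with medians of 0.42 in each. Ndufs7, which carries the last iron-sulfur cluster before ubiquinone, was at 31.7, 27.2 and 43.1 FPKM in siCtrl at day 1 and at 72.2, 87.2 and 94.7 at day 3, a log2 fold change of 1.25 ± 0.17 (adjusted p = 0.00015). In siPRMT1 it changed by 0.74. Ndufs3, a core subunit of the peripheral arm, was at 7.26, 9.39 and 5 FPKM in siCtrl at day 1 and at 19.4, 21.1 and 19.6 at day 3, which did not overlap (1.40 ± 0.19, adjusted p = 0.00013). The flavin-bearing subunit Ndufv1 changed by 0.48 in siCtrl, under the size a call needs, and by 0.59 in siPRMT1. All 4 subunits of succinate dehydrogenase, which also serves the TCA cycle, passed upward at any fold change in both groups (30.2% and 32.2% of all genes). Their log2 fold changes lay between 0.44 and 0.69 in siCtrl and between 0.53 and 0.85 in siPRMT1. Of the 4, 2 were called higher in siCtrl and 4 in siPRMT1 (22.7% and 19.0% of all genes).

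In complex IV, which reduces oxygen, 6 of 14 tested members were called higher in siCtrl and 1 lower, where 22.7% and 20.4% of all genes were. In siPRMT1, 4 of 13 were called higher and none lower (19.0% and 17.4% of all genes). Cox5b changed from 178 ± 7.81 to 352 ± 49.5 FPKM (SD, n = 3), and Cox4i1 from 303 ± 9.25 to 449 ± 56.2 FPKM. The largest log2 fold changes of any member in siCtrl belonged to 2 minor isoforms with few counts. Cox6a2, the heart and muscle isoform, had 4, 1 and 3 counts in siCtrl at day 1 and 19, 9 and 13 at day 3. Cox4i2, a hypoxia-responsive isoform, had 17, 5 and 6 counts at day 1 and 24, 12 and 25 at day 3, in libraries whose totals differ. Their log2 fold changes in siCtrl were 2.75 ± 0.46 and 1.58 ± 0.31, both called, yet neither exceeded 0.314% of the summed FPKM of its pair. Cox7a2l, which joins complexes III and IV into supercomplexes, moved the other way, from 123, 119 and 125 FPKM to 91.3, 82.3 and 97.7 in siCtrl (log2 fold change -0.51 ± 0.09, adjusted p = 0.0006). In siPRMT1 its range was 104 to 110 FPKM on day 1 against 105 to 118 FPKM at day 3, and the days overlapped.

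Of the 17 members counted with ATP synthase, 5 were called higher in siCtrl, near the 22.7% of all genes. In siPRMT1 9 were called, where all genes stood at 19.0%. These 9 include Atp5sl, which like Atp5s is not a structural subunit in the strict sense. Atp5b was at 563, 561 and 627 FPKM in siCtrl at day 1 and at 832, 945 and 904 at day 3, a log2 fold change of 0.55 ± 0.08 (adjusted p = 0.00021). Atp5s was called lower in siCtrl at -0.66 ± 0.14 (adjusted p = 0.0028), at levels of 2.19 to 4.01 FPKM. Both members called lower over time in siCtrl, Atp5s and Cox7a2l, are thus among those that are not structural subunits in the strict sense.

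**Figure D2:**
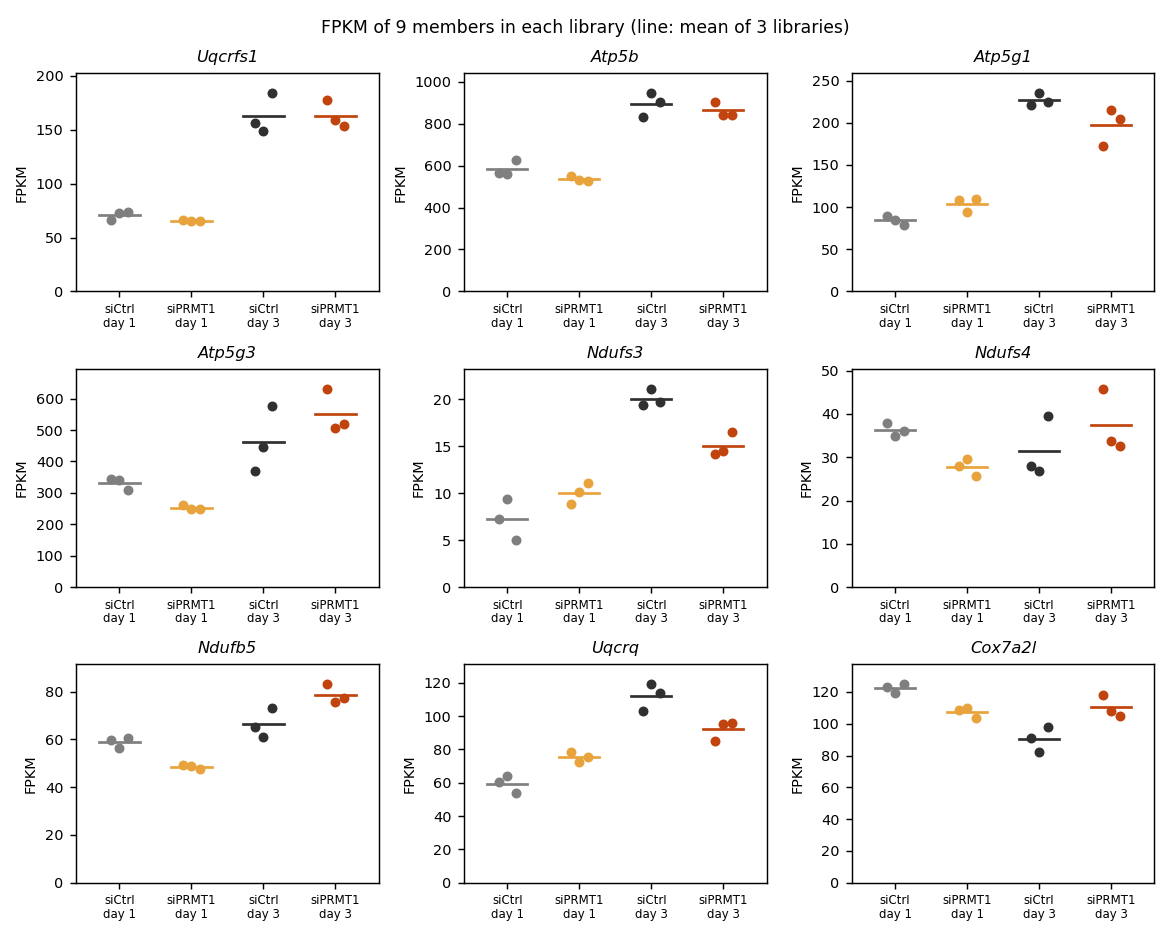
FPKM (vertical axis, starting at 0) of 9 members in each of the 12 libraries, with points for libraries and lines for the mean of 3, in siCtrl and siPRMT1 at day 1 and day 3. Uqcrfs1 and Atp5b separate by day in both siRNA groups, Ndufs3 and Uqcrq rise less in siPRMT1, and Atp5g3 and Ndufb5 rise more.

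The c subunit, the rotor ring of ATP synthase, is made from 3 genes whose mature proteins are the same and whose import sequences differ. Their balance shifted with day, and at day 1 with siRNA. At day 1 the shares did not overlap between siRNA groups for any of the 3 genes. Atp5g3 supplied 50.3% to 51.2% of their summed FPKM in siCtrl and 39.7% to 42.6% in siPRMT1. At day 3 the shares of all 3 genes overlapped between siRNA groups. Atp5g1 supplied between 12.4% and 13.3% of the summed FPKM of the 3 genes in the siCtrl libraries at day 1 and between 21.4% and 26.9% at day 3. In siPRMT1 its share was 16.1% to 17.7% in the day 1 libraries against 17% to 22.7% in those of day 3, so that the days overlapped. Atp5g1 was called higher at day 3 in both groups, with log2 fold changes of 1.36 ± 0.08 and 0.91 ± 0.08, and the difference between them passed in edgeR (-0.44 ± 0.12, adjusted p = 0.028). Atp5g2 was at 236 ± 18.8 FPKM in siCtrl at day 1 and at 247 ± 12.5 at day 3 (SD, n = 3), a log2 fold change of -0.01 (adjusted p = 0.96). Atp5g3 rose by 0.41 ± 0.14 on the log2 scale in siCtrl (adjusted p = 0.029) and by 1.12 ± 0.08 in siPRMT1 (adjusted p = 4.3e-08).

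**Figure D3:**
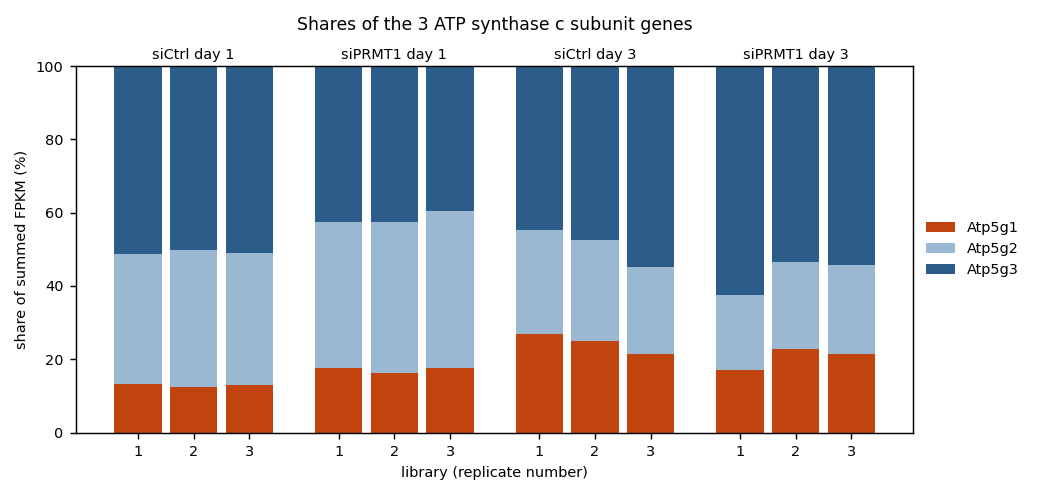
Share of each of the 3 c subunit genes in their summed FPKM (vertical axis, %), 1 bar per library, for Atp5g1 (red), Atp5g2 (light blue) and Atp5g3 (dark blue). Atp5g1 grows from between 12.4% and 13.3% in siCtrl at day 1 to between 21.4% and 26.9% at day 3, while the Atp5g2 share falls in both siRNA groups.

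With all libraries, no member was called between siPRMT1 and siCtrl. At day 1 none of 75 tested members was called higher (1.95% of all 13689 genes) and none lower (1.61%) in edgeR's quasi-likelihood test, and DESeq2 called none either way. At day 3 none of 77 was called higher (2.84% of all 14039 genes) and none lower (3.8%), again with none by DESeq2. The median log2 fold changes of the members were -0.06 and -0.04, against 0.01 over all genes on both days. At an unadjusted p under 0.05 edgeR had 4 members higher (11.8% of all genes) and 23 lower (12.8%) at day 1, and 7 higher (15.3%) and 20 lower (15.9%) at day 3. Without siCtrl day 1 replicate 3, Atp5g3 was called lower at day 1 (-0.50, adjusted p = 4.33e-05). At day 3 Ndufv3 was called lower without siCtrl replicate 1 (-0.51) and without siPRMT1 replicate 2 (-0.51). The summed adipocyte markers were lower in siPRMT1 on both days (109 to 123 against 144 to 149 FPKM, and 1627 to 1843 against 2068 to 2239). Of the single adipocyte markers, Pparg (-0.52) and Cebpa (-0.88) passed downward at any fold change at day 1. Fabp4 (-0.51), Plin1 (-0.96) and Lpl (-0.25) did not, and Adipoq was not tested. At day 3 all passed downward except Fabp4 (-0.13). The summed preadipocyte markers overlapped at day 1 (988 to 1048 against 1040 to 1179 FPKM) and were higher at day 3 (557 to 648 against 459 to 502 FPKM). At day 1 Pdgfra (-0.23) and Col1a2 (-0.21) passed downward at any fold change. At day 3 Pdgfra (0.60), Pdgfrb (0.41) and Col1a2 (0.46) passed upward. Thy1 (0.11), Col1a1 (0.15) and Dlk1 (-0.07) did not pass at day 3. The part of these cell type markers in the differences between siRNA groups was not tested.

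Some differences under that size still had an adjusted p under 0.05. At day 1 no member passed upward (3.22% of all genes) and 10 passed downward (4.38%). They were 5 ATP synthase genes (Atp5g3, Atp5f1, Atp5h, Atp5l and Atp5c1), 3 of complex I (Ndufs4, Ndufb5 and Ndufc2) and 2 of complex IV (Ndufa4 and Cox6c), all named here after their values were seen. Atp5g3 was at 344, 342 and 308 FPKM in siCtrl and at 261, 248 and 247 in siPRMT1, a log2 fold change of -0.44 ± 0.07 (SE, adjusted p = 0.012). Ndufs4, an accessory subunit needed for a complete complex I, was at 38.0, 34.9 and 36.2 FPKM in siCtrl and at 28.04, 29.66 and 25.63 in siPRMT1 (-0.44 ± 0.08, adjusted p = 0.021). In both genes the siRNA groups did not overlap, with siPRMT1 the lower. Leaving out any single siPRMT1 library at day 1 gave 0 members lower at any fold change, and leaving out siCtrl replicate 1 or 2 gave 2 and 1. The shares of all genes in those fits are not given here, so these counts are not read as particular to the members. Leaving out siCtrl replicate 3, the library that stood apart, gave 23 lower (15% of all genes in that fit) and 7 higher (14.7%).

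At day 3, 1 member passed upward (7.54% of all genes) and 11 downward (8.94%), again named after their values were seen. The one upward was Cox7a2l, at 91.3, 82.3 and 97.7 FPKM in siCtrl and 118, 108 and 105 in siPRMT1 (0.28 ± 0.08, adjusted p = 0.024). Those downward were 6 of complex I (Ndufv3, Ndufs3, Ndufb3, Ndufa11, Ndufa6 and Ndufb10), Uqcr11 and Uqcrq of complex III, Cox6a1 and Cox8a of complex IV, and Atp5d. Ndufs3 was at 19.4, 21.1 and 19.6 FPKM in siCtrl and at 14.2, 14.4 and 16.5 in siPRMT1 (-0.42 ± 0.10, adjusted p = 0.0087). Ndufv3, an accessory subunit beside the flavin site, was at 107, 128 and 116 FPKM in siCtrl and at 74.3, 96.6 and 90.4 in siPRMT1 (-0.43 ± 0.09, adjusted p = 0.0057), and it alone among the 12 passed the adjusted p in every fit without 1 library. Over those fits 2 to 15 members were lower and 0 to 7 higher at any fold change. The lowest count, 2, came without siCtrl replicate 2. Without siCtrl replicate 3, 7 members passed upward and 5 downward, and without siPRMT1 replicate 1 or 2 5 and 4 passed downward. With no shares of all genes in these fits given here, the counts are not read as particular to the members.

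**Figure D4:**
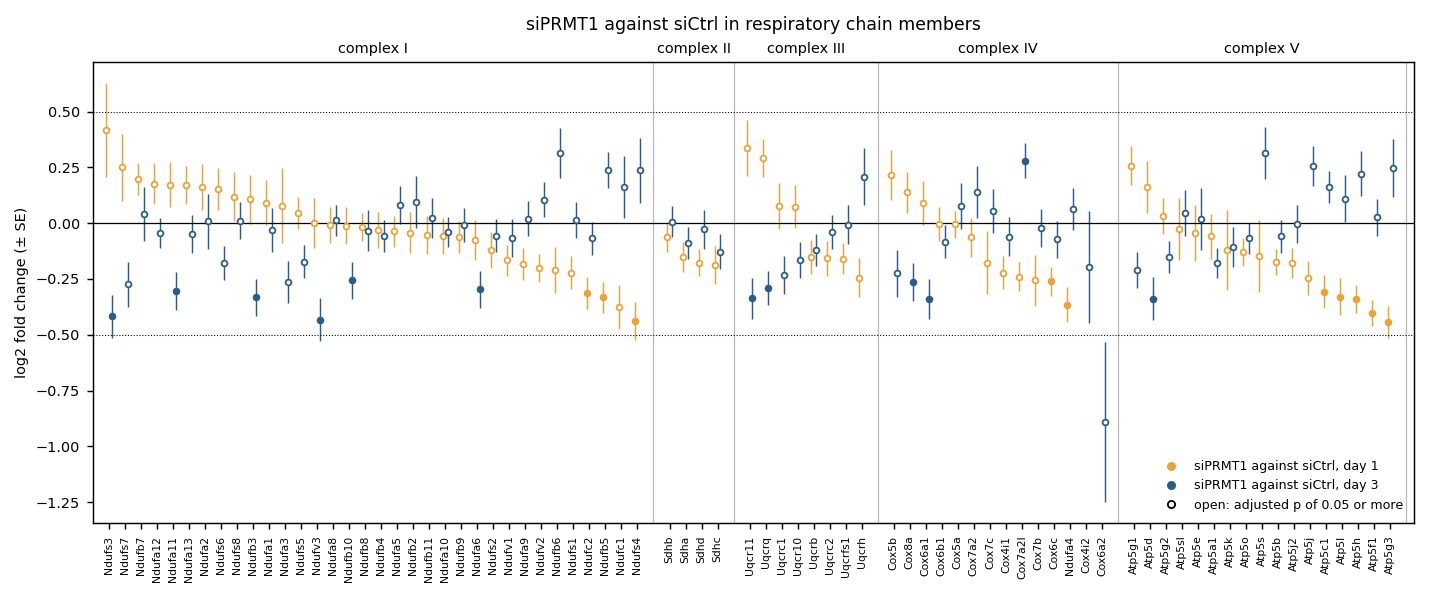
Log2 fold change of siPRMT1 against siCtrl (vertical axis, points with SE) for each tested member, by complex, at day 1 (orange) and day 3 (blue), with filled points past an adjusted p of 0.05 and dotted lines at 0.5 and -0.5. All filled points lie inside the dotted lines, 10 below 0 at day 1, and 11 below and 1 above 0 at day 3.

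The change from day 1 to day 3 was compared between the siRNA groups. The interaction, which is the log2 fold change over time in siPRMT1 minus that in siCtrl, was tested on 78 members in all 12 libraries. It was called positive for 6 (4.77% of all 14612 genes) and negative for 4 (3.47%), and at any size it passed for 10 (7.69%) and 5 (4.63%). Members that did not pass are not thereby shown to change alike in both groups. Without siCtrl day 1 replicate 3, 8 were called positive and 7 negative, with no share of all genes in that fit given here. At any fold change, 14.7% of all genes passed upward and 15% downward between siRNAs at day 1 without it, against 3.22% and 4.38% with it. The higher counts without it are therefore not read as particular to the members. Positive in the fit of all 12 libraries were Atp5g3, Ndufs4, Ndufb5, Atp5h, Cox7a2l and Atp5j, and negative were Cox6a2, Ndufs3, Uqcr11 and Uqcrq. Ndufb5, an accessory subunit of the complex I membrane arm, had the smallest p, at 59.8, 56.6 and 60.6 FPKM in siCtrl and 49.1, 48.8 and 47.7 in siPRMT1 at day 1. At day 3 it was at 65.0, 60.9 and 73.4 FPKM in siCtrl and 83.2, 75.8 and 77.2 in siPRMT1. The order of the groups was thus turned, with an interaction of 0.59 ± 0.11 (adjusted p = 0.0034). Uqcrq, a small complex III subunit, did the opposite, with means of 59.4 ± 5.23 and 75.3 ± 2.98 FPKM in siCtrl and siPRMT1 at day 1 and of 112 ± 8.21 and 92.1 ± 6.13 at day 3 (SD, n = 3), an interaction of -0.56 ± 0.11 (adjusted p = 0.0058). Ndufb5 and Uqcrq were the 2 whose calls held in every fit without 1 library. Cox6a2 rests on at most 19 counts in a library, and its call was kept in 4 of the 12 such fits, as was that of Ndufs4.

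GC content moved with these differences. Among members at or under the median GC content of the members (50.2%), the median interaction was 0.21, and among those above it -0.14. Over all genes tested the same split gave 0.11 and -0.10. At day 1 the median log2 fold change of siPRMT1 against siCtrl was -0.18 in the members of lower GC content and -0.01 in the others, against -0.03 and 0.05 over all genes. At day 3 the order was the opposite, with 0.01 in the members of lower GC content and -0.08 in the others, against 0.06 and -0.06 over all genes. With trends in GC content and length removed, 9 of the 10 interaction calls were kept, as were 9 of the 10 members lower at any fold change at day 1. Uqcr11 was the interaction call lost, at -0.35 (adjusted p = 0.066).

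Other genes of the pathway behaved as follows. Cycs (cytochrome c), Cyc1 (the cytochrome subunit of complex III) and Ndufab1 (the acyl carrier of complex I) are missed by the name rule. All 3 were called higher at day 3 in both groups (22.7% and 19.0% of all genes), with log2 fold changes of 1.37, 1.19 and 0.80 in siCtrl. None of the 3 passed between siRNA groups on either day. Of all genes, 3.22% passed upward and 4.38% downward at day 1, and 7.54% and 8.94% at day 3. Of 43 tested assembly factors, 16 were called higher and 2 lower in siCtrl (22.7% and 20.4% of all genes), and 19 and 0 in siPRMT1 (19.0% and 17.4%). The mitochondrially encoded subunits were not analysed here. Of 13 tested regulators, 3 were called higher over time in each siRNA group and none lower, which is near the 22.7% and 19.0% of all genes called higher. Esrra, an orphan nuclear receptor that acts on oxidative genes, changed from 12.8 ± 0.51 to 38.0 ± 2.0 FPKM in siCtrl (log2 fold change 1.497, adjusted p = 5.4e-07), and Ppargc1b, a coactivator, from 0.337 ± 0.051 to 5.42 ± 0.32 (3.93, adjusted p = 1.3e-08). Nrf1, which encodes the factor that binds the motif above, was at 5.80 ± 0.47 and 6.04 ± 0.14 FPKM in siCtrl (-0.01, adjusted p = 0.92). In siPRMT1 Nrf1 passed downward over time at any fold change (31.2% of all genes). Its log2 fold change there was -0.31 (adjusted p = 0.00041), under the size a call needs. In edgeR none of the 13 was called between siRNA groups at day 1 (1.95% of all genes higher, 1.61% lower). At day 3 Ppargc1a, at 0.41 FPKM in siCtrl and 0.60 in siPRMT1, was called higher (0.55, adjusted p = 0.012), as were 2.84% of all genes. None was called lower (3.8%). The interaction was called positive for Tfam (0.55, adjusted p = 0.018, 4.77% of all genes). At any size it passed downward for Esrra (-0.41, adjusted p = 0.028, 4.63%).

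The median log2 fold change over time in siCtrl was 0.61 for 76 mitochondrial ribosomal protein genes and 0.79 for 28 genes of pyruvate entry and the TCA cycle, against 0.47 for the members and -0.30 for 71 cytosolic ribosomal protein genes, which encode the translation machinery outside mitochondria. For siPRMT1 against siCtrl the medians at day 1 were 0.03, -0.14 and -0.17 for these lists in the same order, and at day 3 -0.09, -0.14 and 0.12. No test of a difference between lists was made.

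**Figure D5:**
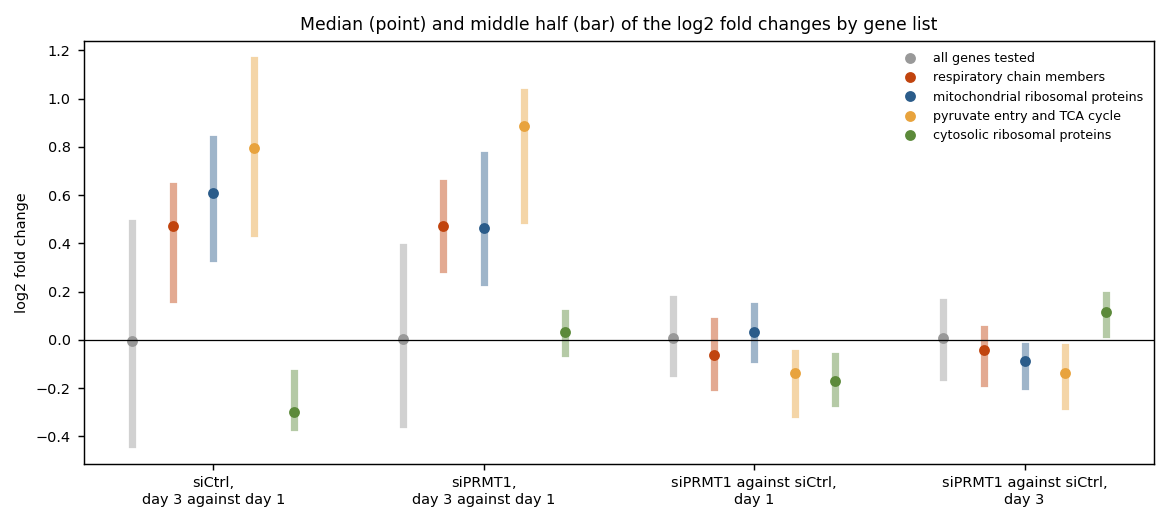
Median (points) and interquartile range (bars) of the log2 fold changes (vertical axis) of all genes tested, the members and 3 other lists, for both changes over time and both siRNA comparisons. The members' medians are 0.47 over time in both groups and -0.06 and -0.04 between siRNAs.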

How the data were processed

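Poly(A) RNA of 12 libraries was sequenced. Per the labels and the study's methods, the authors trimmed reads with cutadapt 1.11, aligned them to mm10 with HISAT2 2.1.0 and quantified genes with RSEM 1.2.6. They deposited 1 table of counts (whole numbers, not normalized) and 1 of FPKM, each holding all 12 libraries. How multi-mapping fragments were treated and which PRMT1 siRNA was used are not given in the sources used here. FPKM recomputed from the deposited counts and lengths agreed within 0.005. Totals of 15116462 to 42357137 counts set the precision. Replicates differed by more than sampling noise (chi-square per gene 4.14 to 50.6 in 12 pairs, the highest with siCtrl day 1 replicate 3), so each counted once.

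Counts were tested with edgeR 4.0.16 (R 4.3.3, filterByExpr, TMM, glmQLFit and glmQLFTest, Benjamini-Hochberg over all genes tested). Pairwise comparisons used their own 6 libraries, and the interaction used all 12. A call needed an adjusted p under 0.05 and a log2 fold change beyond 0.5, the study's thresholds. The scripts were tested on simulated data. Members and lists were chosen with earlier results of these data known. Genes were named by rule: in each contrast the 5 called members with the largest change in each direction, the highest and lowest member per complex, isoform groups, the 20 subunits listed by role, the 3 smallest interaction p-values and untested members. Others are named after their values were seen. Alternatives were DESeq2 1.42.0, RLE scaling, other filters, limma 3.58.1 on log2(FPKM + 1), a replicate block, a length trend, and leaving out each library. Removing GC and length trends together, and the alternatives for counts at any fold change between siRNA groups, were added after seeing the data. Mitochondrially encoded genes were not analysed here.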

Additional observations from a re-analysis of the deposited data

Results flagged for a closer look

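The change from day 1 to day 3 differed between siPRMT1 and siCtrl for 10 members in edgeR's quasi-likelihood test of the interaction (adjusted p from 0.0034 to 0.0417). Of all genes, 4.77% were called positive and 3.47% negative. The interaction is given here as the log2 change in siPRMT1 minus that in siCtrl. It was 0.71 for Atp5g3, 0.70 for Ndufs4, 0.59 for Ndufb5, 0.58 for Atp5h, 0.54 for Cox7a2l and 0.52 for Atp5j. It was -0.82 for Ndufs3, -0.66 for Uqcr11, -0.56 for Uqcrq and -2.15 for Cox6a2, which had at most 19 counts in a library. Only 2 of the 10 calls, those of Ndufb5 and Uqcrq, held in every fit without 1 library. Ndufs4 and Cox6a2 kept theirs in 4 of 12 such fits, and the others in 7 to 11.

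Counts also stood under names that the name rule left out. Summed over the 12 libraries, the second copy of Ndufs3 held 251 counts beside 3410 of the member itself, that of Uqcrc1 held 27 beside 6904, and that of Atp5a1 held 106 beside 23882. The 3 further copies of Ndufa7 held 3151, 468 and 2314 counts beside 5 of the member.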

How the results depend on the processing

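No direction was reversed under the alternatives run. Shares of all genes were given for the unaltered edgeR fits and for the length-trend calls over time. Beyond these, they were given only for siPRMT1 against siCtrl at day 1 without siCtrl replicate 3. Counts of members in the other fits are therefore not read as particular to the members. Without a fold threshold, the counts of members lower in siPRMT1 were 10 at day 1 and 11 at day 3 (1 higher at day 3), those higher over time 52 in siCtrl and 62 in siPRMT1 (1 lower), and the positive interactions 10. With the length trend removed, 14 and 19 members were called higher over time, with medians of 0.18 and 0.34. With GC content and length removed, 16 and 16 were called, with medians of 0.19 and 0.33. Under the length trend the siRNA comparison had a median of -0.12 at day 1, 4 higher and 7 lower at any fold change at day 3, 12 positive interactions and an interaction median of 0.15. Under GC content and length it had, at any fold change, 2 higher and 19 lower with a median of -0.12 at day 1, and 6 higher at day 3. At any fold change DESeq2 gave 1 higher at day 1 and 3 at day 3. 1 model of all 12 libraries gave, at any fold change, 1 higher and a median of -0.092 at day 1 and 5 lower at day 3. Without a filter on counts, 8 were higher at any fold change at day 3, 11 interactions were positive and the siPRMT1 time median was 0.44, and with at least 10 counts in every library 1 was lower over time in siCtrl. With limma on log2(FPKM + 1), log2(FPKM + 0.1) and log2(FPKM + 1) with no filter, the day 1 medians were -0.0073, -0.0074 and -0.0073, the members lower at any fold change at day 3 were 4, 4 and 1, those called lower over time in siCtrl 0, 1 and 0, the positive interactions 3, 3 and 1, and the interaction medians 0.018, 0.017 and 0.015. At any fold change both filtered limma fits gave 1 higher at day 1, and the unfiltered fit 3 lower at day 1 and 0 higher at day 3, with 2 negative interactions and a siPRMT1 time median of 0.44. The cause of these shifts was not tested. Leaving out 1 library gave 0 to 7 higher and 0 to 23 lower at any fold change at day 1 (0 to 1 called lower, medians -0.12 to -0.049), 0 to 7 and 2 to 15 at day 3 (0 to 1 called lower, medians -0.12 to -0.0047), 26 to 38 higher and 1 to 3 lower over time in siCtrl (medians 0.33, without day 3 replicate 3, to 0.48), 32 to 39 higher in siPRMT1 (medians 0.44 to 0.50), and 1 to 12 positive and 1 to 7 negative interactions (medians 0.020 to 0.12). Correlations ran from -0.178 to 0.232 in 18 pairs of same-numbered libraries and from -0.305 to 0.233 in 36 other pairs. As these ranges overlap, whether replicate numbers pair the samples cannot be told from them. With a replicate block, 4 members were higher and 17 lower at any fold change at day 3. Low counts limit Cox6a2, Cox4i2, Ndufa4l2 and the untested isoforms.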
